A study of Homo sapiens with 6 samples.

Results

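The genes examined here are 8 named components of the tight junction and of apical cell polarity, CLDN1, CLDN3, CLDN4, CLDN7, OCLN, TJP1, CRB3 and F11R, taken by their symbols from the 19503 named genes of the deposited expression table, in which all 8 were found. They were measured by RNA sequencing in HLE cells, a human hepatocellular carcinoma line, in 3 lentiviral lines with 2 libraries each. One line carried a control shRNA. The others, kd.1 and kd.2, each carried a different shRNA against ZNF281, a zinc-finger transcription factor. All 3 lines had been infected at a multiplicity of 10 and selected in puromycin for 7 days, so that treatment is shared by the control. The labels do not say whether a line is 1 clone or a pool, nor whether duplicates are separate cultures. The p-values therefore reflect library-to-library spread alone, and that may be technical.

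Tight junctions seal the space between neighbouring epithelial cells. Claudins form the sealing strands, occludin (OCLN) and the junctional adhesion molecule JAM-A (F11R) lie beside them in the membrane, and the scaffold ZO-1 (TJP1) ties the strands to actin. CRB3 is the epithelial Crumbs protein, which marks the apical membrane and recruits PALS1 and PATJ. In hepatocytes the same junctions border the bile canaliculi, and Snail-family and ZEB repressors are known to lower claudin and Crumbs genes through E-boxes, short DNA elements in their promoters.

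Values are FPKM, fragments scaled to transcript length and library total, so levels of different genes can be set side by side. No counts were used and the absolute depth is unknown. The library sums ran from 512672.6 to 575886.9 FPKM, and duplicates differed with an SD of 0.245 (control), 0.147 (kd.1) and 0.137 (kd.2) in log2 units over the tested genes. ZNF281 itself stood at 9.52 and 8.43 FPKM in the control libraries, 4.35 and 4.71 in kd.1 and 4.37 and 4.47 in kd.2. It was lower in every knockdown library than in either control, with no detectable difference between the lines (log2 difference -0.03, 95% interval -0.25 to 0.18).

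The promoters of 4 members are shown first. They were chosen because these genes carry the changes described below, so their motif counts are no test of those changes. The windows are RefSeq's on GRCh38.p14, from 250 bases before the transcript start to 50 after it, read 5′ to 3′ on the gene's strand. Capitals mark the E-box CACCTG and the heptamer CCCTCCC, a part of the GC-rich sites known for ZNF281, each on either strand (CAGGTG and GGGAGGG). CLDN7 is shown at chr17:7262429-7262728 (minus strand), CRB3 at chr19:6464021-6464320 (plus strand), CLDN4 at chr7:73830746-73831045 (plus strand) and CLDN1 at chr3:190322397-190322696 (minus strand).
CLDN7: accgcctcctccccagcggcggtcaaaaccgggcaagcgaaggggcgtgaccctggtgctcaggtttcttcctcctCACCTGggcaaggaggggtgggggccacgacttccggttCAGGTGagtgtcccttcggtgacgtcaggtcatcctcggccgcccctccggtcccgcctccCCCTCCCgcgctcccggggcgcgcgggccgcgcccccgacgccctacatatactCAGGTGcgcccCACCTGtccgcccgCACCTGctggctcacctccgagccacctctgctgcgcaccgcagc
CRB3: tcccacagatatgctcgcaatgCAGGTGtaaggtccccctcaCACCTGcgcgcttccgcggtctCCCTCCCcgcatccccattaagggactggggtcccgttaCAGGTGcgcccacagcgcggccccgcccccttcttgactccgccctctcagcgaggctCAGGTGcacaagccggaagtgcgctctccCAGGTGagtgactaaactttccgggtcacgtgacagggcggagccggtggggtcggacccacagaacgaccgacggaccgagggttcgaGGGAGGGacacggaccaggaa
CLDN4: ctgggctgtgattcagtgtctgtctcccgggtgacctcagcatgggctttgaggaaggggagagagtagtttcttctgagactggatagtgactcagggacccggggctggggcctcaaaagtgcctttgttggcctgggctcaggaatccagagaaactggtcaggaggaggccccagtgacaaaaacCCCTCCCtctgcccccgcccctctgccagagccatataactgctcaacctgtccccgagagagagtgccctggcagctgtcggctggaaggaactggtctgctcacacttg
CLDN1: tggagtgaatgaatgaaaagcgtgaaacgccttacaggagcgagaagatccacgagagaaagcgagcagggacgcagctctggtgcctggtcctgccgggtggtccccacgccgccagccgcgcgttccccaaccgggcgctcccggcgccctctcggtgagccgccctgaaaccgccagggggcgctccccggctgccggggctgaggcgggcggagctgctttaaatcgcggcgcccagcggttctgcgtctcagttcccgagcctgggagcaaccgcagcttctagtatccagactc

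The window of CLDN7 holds 5 E-boxes and 1 heptamer, and that of CRB3 holds 5 E-boxes and 2 heptamers. CLDN4 holds 0 E-boxes and 1 heptamer, and CLDN1 holds neither. Of 35116 windows of the same length over all genes, 20.6% hold at least 1 E-box, 0.094% hold 5 or more, and 26.6% hold the heptamer. The cut of 5 equals the counts of the CLDN7 and CRB3 windows, so the share of 0.094% is no test of them. The table gives 12 windows for 7 of the 8 members. Of these, 6 hold an E-box and 7 the heptamer. E-boxes also lie in windows of CLDN3, OCLN and TJP1, members that were untested or not called. The OCLN windows overlap and share a heptamer. A second CLDN7 window, at chr17:7263164-7263463, holds 3 heptamers and 0 E-boxes. These matches describe letters only and show no binding.

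In the control line the members fell into an order of level from 43.3 to 0.43 FPKM. CLDN1 led at 43.3 ± 5.95 (SD, n = 2, as for every mean here), followed by F11R at 30.0 ± 1.17, CLDN7 at 14.3 ± 0.658, CLDN4 at 5.93 ± 0.113, TJP1 at 5.73 ± 1.4, CRB3 at 4.32 ± 0.00707, CLDN3 at 0.5 ± 0.127 and OCLN at 0.43 ± 0.0424. CLDN4 lay within the range of TJP1, and CLDN3 and OCLN overlapped each other. The other neighbours in this order did not overlap. In kd.1 the order differed: CLDN1, F11R and CLDN7 overlapped, as did CRB3 and TJP1, and CLDN4 was the lowest of the 6 genes. In kd.2 no neighbours among those 6 genes overlapped, in the order CLDN1, F11R, CLDN7, TJP1, CRB3 and CLDN4. The 6 genes exceeded 1 FPKM in every library and were tested. CLDN3 and OCLN stayed between 0.32 and 0.6 FPKM in every library, under the filter of 1 FPKM in at least 2 libraries, and were given no test.

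**Figure D1:**
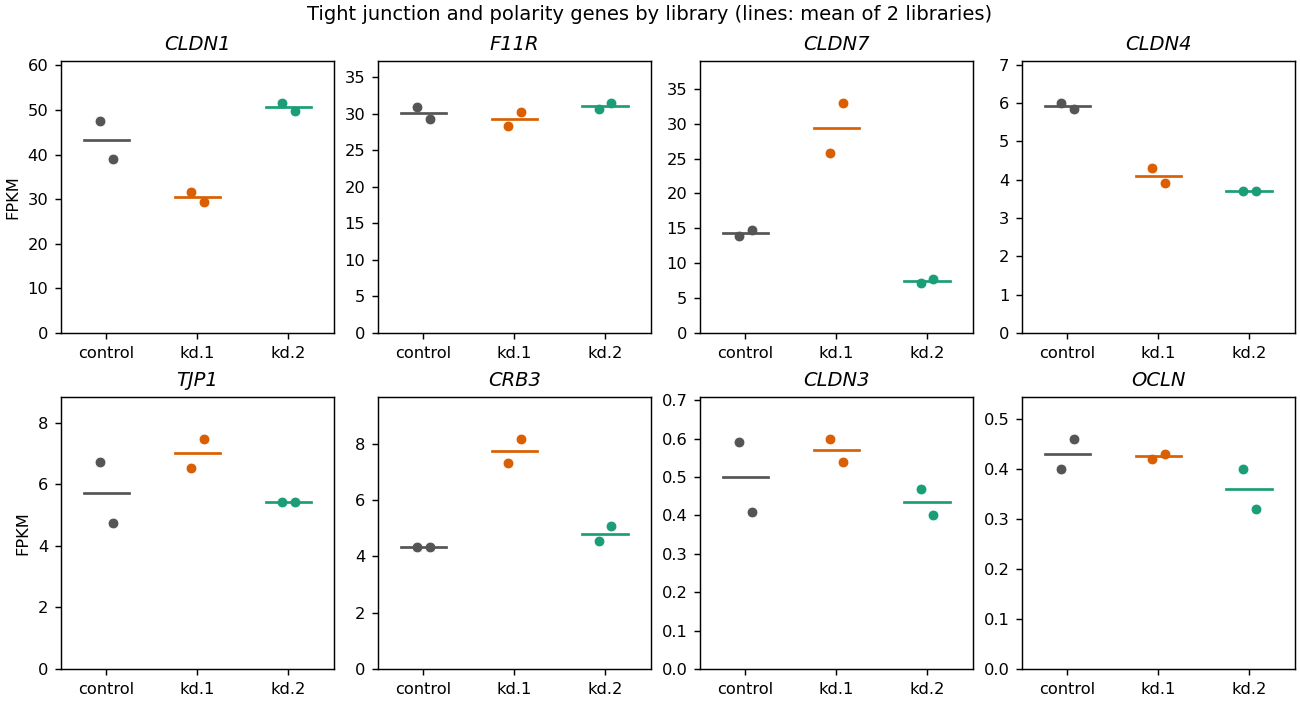
FPKM of the 8 genes in each library of the control, kd.1 and kd.2 lines, ordered by control level, with each vertical axis starting at 0 and on its own scale. Points are libraries and lines are means of 2. CLDN7 sits between 25.76 and 33.05 in kd.1, above both controls, and between 7.14 and 7.72 in kd.2, below both, whereas F11R stays between 28.32 and 31.51 in all 6 libraries.

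The first comparison set each knockdown line against the control shRNA. In kd.1, CLDN7 and CRB3 rose and CLDN1 and CLDN4 fell. In kd.2, CLDN7 and CLDN4 fell and no tested member rose. CLDN4 was thus the member that fell in each line, and CLDN7 the one called in opposite directions. Calls rest on limma p-values adjusted by Benjamini-Hochberg over all 10851 tested genes, with a threshold of 0.05. In kd.1, 4 of the 6 tested members were called, 2 higher and 2 lower, where 29.2% of all tested genes were called, 15.8% higher and 13.4% lower. In kd.2, 2 of 6 were called, both lower, where 37.9% of all tested genes were called, 15.7% higher and 22.2% lower. Scaling every library to a common FPKM sum turned the split of all called genes from 1712 higher and 1454 lower to 1886 and 847 in kd.1, and from 1705 and 2405 to 2125 and 1337 in kd.2, but left the members' split as it was. Over all tested genes, 12.9% were called the same way in both lines, as CLDN4 was, and 2.15% in opposite directions, as CLDN7 was. Both contrasts use the same 2 control libraries. In bulk RNA fewer cells expressing a gene and less RNA per cell cannot be told apart.

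CLDN7 (gene ID 1366; GRCh38, chromosome 17, 7259903 to 7263983, minus strand, 4 exons), a claudin found also along the lateral membrane, stood at 13.85 and 14.78 FPKM in the control libraries. It was 25.76 and 33.05 in kd.1 and 7.14 and 7.72 in kd.2. No library of one line overlapped another line. Changes are given as differences of log2(FPKM + 0.1), a scale that shrinks the changes of genes near 0. CLDN7 rose by 1.02 ± 0.11 (SE) in kd.1, 2.03-fold (limma adjusted p = 0.000478). In kd.2 it fell by 0.94 ± 0.11, a 1.91-fold drop (adjusted p = 0.000744). The kd.1 libraries differed from each other by more than those of the other lines, and the kd.1 change was between 0.84 and 1.2 in all 14 alternative analyses. Exons of CLDN7 overlap those of ELP5 on the opposite strand, and the labels do not say whether strand was counted. ELP5 lay between 36.41 and 39.57 FPKM in every library, and its log2 change was 0.02 ± 0.06 for kd.1 and -0.06 ± 0.06 for kd.2. A gene model on the same strand, AC003688.1, also overlaps CLDN7 exons, so reads may be split between them.

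CLDN4 (gene ID 1364; chromosome 7, 73799542 to 73832693, plus strand), a sealing claudin that is also a receptor of a Clostridium toxin, was 6.01 and 5.85 FPKM in the control. It was 4.31 and 3.9 in kd.1 and 3.69 and 3.71 in kd.2. All knockdown libraries lay below both controls. CLDN4 fell in kd.1 by 0.52 ± 0.09 on the log2 scale (limma adjusted p = 0.00408). The fall in kd.2 was 0.67 ± 0.09 (limma adjusted p = 0.00122). These are drops of 1.44-fold and 1.59-fold. The difference between the lines was -0.14 ± 0.09, with a 95% interval of -0.35 to 0.06. CLDN3 (gene ID 1365), its neighbour on chromosome 7 at 73768997 to 73770270 on the minus strand and itself a toxin receptor, was listed at 0.59 and 0.41 FPKM in the control, 0.6 and 0.54 in kd.1 and 0.47 and 0.4 in kd.2. The CLDN3 libraries of each line overlapped those of the control.

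CLDN1 (gene ID 9076; chromosome 3, 190305701 to 190322475, minus strand), a claudin of the barrier in skin and liver and a coreceptor for hepatitis C virus, was 47.47 and 39.05 FPKM in the control. It was 31.56 and 29.27 in kd.1, below both controls, and 51.67 and 49.75 in kd.2, above both. CLDN1 fell by 0.5 ± 0.09 on the log2 scale in kd.1, 1.42-fold (limma adjusted p = 0.00546). In kd.2 its change of 0.24 ± 0.09 did not pass (adjusted p = 0.0751; 95% interval 0.02 to 0.45). The control libraries set that kd.2 value. Without control replicate 1 it was 0.38, and without control replicate 2 it was 0.09. No p-value is given for these fits, whose spread comes from the knockdown lines alone.

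CRB3 (gene ID 92359; chromosome 19, 6463777 to 6467221, plus strand) was 4.32 and 4.33 FPKM in the control, 7.32 and 8.19 in kd.1 and 4.54 and 5.09 in kd.2. The kd.1 libraries stood well above all others, and both kd.2 libraries lay slightly above the controls. CRB3 rose by 0.83 ± 0.1 on the log2 scale in kd.1, 1.77-fold (limma adjusted p = 0.000639). In kd.2 the change was 0.15 ± 0.1 with a 95% interval of -0.07 to 0.37 (adjusted p = 0.243). Exons of CRB3 overlap those of DENND1C on the opposite strand, whose highest value in any library was 0.96 FPKM.

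F11R, an immunoglobulin-family adhesion protein, and TJP1, the ZO-1 scaffold, were not called in either line. F11R (gene ID 50848; chromosome 1, 160995211 to 161021348, minus strand) was 30.88 and 29.22 FPKM in the control, 28.32 and 30.15 in kd.1 and 30.65 and 31.51 in kd.2. Each knockdown line overlapped the control, and both kd.2 libraries lay above both kd.1 libraries. Its log2 change had a 95% interval of -0.19 to 0.11 in kd.1 and -0.1 to 0.2 in kd.2. Exons of F11R overlap those of a gene model on the same strand, AL591806.3, so reads may be split between them. TJP1 (gene ID 7082; chromosome 15, 29699367 to 29968865, minus strand) was 6.72 and 4.74 FPKM in the control, 6.53 and 7.48 in kd.1 and 5.43 and 5.41 in kd.2. The spread between its controls covered kd.2 and part of kd.1. The TJP1 change of 0.3 ± 0.15 in kd.1 did not pass (limma adjusted p = 0.156), but it was 0.55 (adjusted p = 0.00207) without control replicate 1 and 0.06 (adjusted p = 0.695) without control replicate 2. In kd.2 the TJP1 change was -0.06 ± 0.15 (adjusted p = 0.778), 0.19 without control replicate 1 (adjusted p = 0.126) and -0.31 without control replicate 2 (adjusted p = 0.0364). OCLN (gene ID 100506658; chromosome 5, 69492292 to 69558104, plus strand) was listed at 0.4 and 0.46 FPKM in the control, 0.42 and 0.43 in kd.1 and 0.4 and 0.32 in kd.2. The OCLN control libraries overlapped both knockdown lines, and both kd.2 libraries lay below both kd.1 libraries.

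**Figure D2:**
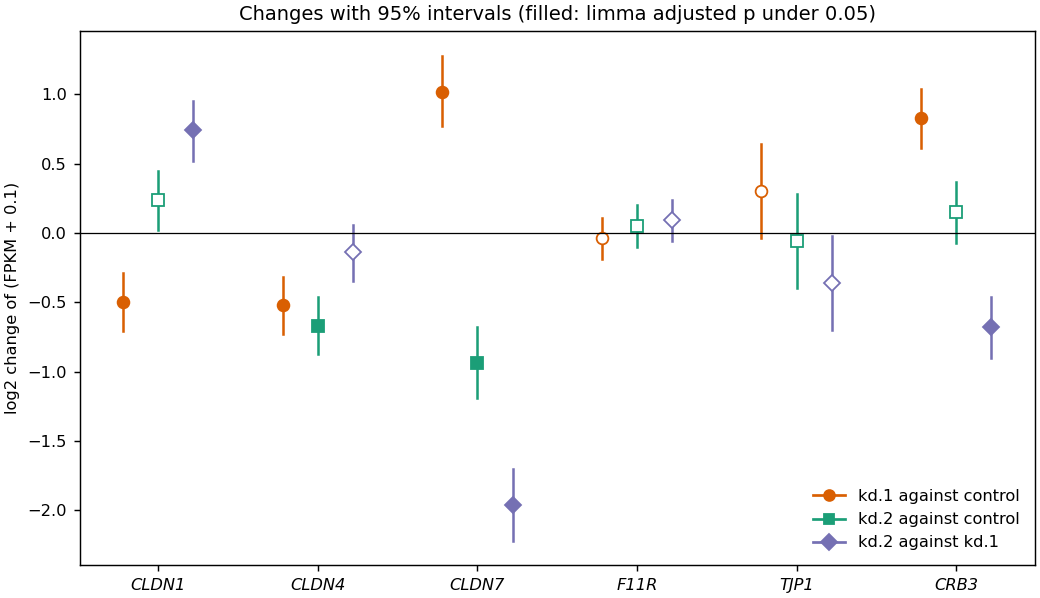
Log2 change of (FPKM + 0.1) for the 6 tested genes in kd.1 against control, kd.2 against control and kd.2 against kd.1, with 95% intervals from limma and filled symbols where the adjusted p was under 0.05. CLDN4 lies below 0 in both contrasts against control, at -0.52 and -0.67, and CLDN7 spans from 1.02 in kd.1 to -0.94 in kd.2.

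The direct comparison of the 2 knockdown lines, which does not use the control libraries as an arm, called 3 of the 6 tested members, 1 higher and 2 lower in kd.2, where 32.2% of all tested genes were called, 11.9% higher and 20.3% lower. With libraries scaled to a common median the split of all called genes turned from 1289 higher and 2207 lower to 1692 and 1733, and that of the members did not move. CLDN7 was 3.89-fold lower in kd.2 than in kd.1 (log2 difference -1.96 ± 0.11, limma adjusted p = 1.31e-05). CRB3 was 1.6-fold lower (log2 difference -0.68 ± 0.1, adjusted p = 0.00116). CLDN1 was 1.67-fold higher (0.74 ± 0.09, adjusted p = 0.000669). TJP1 differed by -0.36 ± 0.15 and did not pass (adjusted p = 0.0986). It passed when either control library was left out. That leaves the difference itself unchanged and takes the TJP1 control pair, 6.72 and 4.74 FPKM, out of the spread. Averaged over both lines, CLDN4 and CRB3 were called, 2 of 6, where 34.7% of all tested genes were called, 16.1% higher and 18.6% lower (1751 and 2018 genes, or 2222 and 1028 with a common FPKM sum). CLDN4 stood at -0.59 ± 0.08 and CRB3 at 0.49 ± 0.08 on the log2 scale (adjusted p = 0.00124 and 0.00386). The mean for CRB3 joins a called rise of 0.83 in kd.1 and a change of 0.15 in kd.2 that was not called. For CLDN7 the mean was 0.04 ± 0.1, since its changes in the lines had opposite signs.

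The make-up of the claudin transcripts was then computed as shares within each library, into which no scaling between libraries enters. This summary was chosen after the values had been seen and was not tested. The table lists 23 claudin genes, of which 5 were tested, CLDN1, CLDN7, CLDN12, CLDN4 and CLDN15. The other 18 never exceeded 0.6 FPKM. The summed claudin level was 86.6 and 76.9 FPKM in the control, 76.0 and 80.1 in kd.1 and 82.1 and 81.7 in kd.2, a level that does depend on that scaling. The control sums spanned those of both kd.2 libraries and 1 kd.1 library, and both kd.1 sums lay below both kd.2 sums. CLDN1 made up 54.8% and 50.8% of it in the control, 41.5% and 36.6% in kd.1 and 62.9% and 60.9% in kd.2. CLDN7 made up 16% and 19.2% in the control, 33.9% and 41.3% in kd.1 and 8.69% and 9.44% in kd.2. The shares have a fixed total, so those of CLDN1 and CLDN7 are not independent. The FPKM of CLDN1 itself was not called in kd.2 against control (limma adjusted p = 0.0751). The FPKM of CLDN7 per FPKM of CLDN1 was 0.292 and 0.378 in the control, 0.816 and 1.13 in kd.1 and 0.138 and 0.155 in kd.2. No library of one line overlapped another in this ratio, and in kd.1 replicate 2 CLDN7 exceeded CLDN1.

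**Figure D3:**
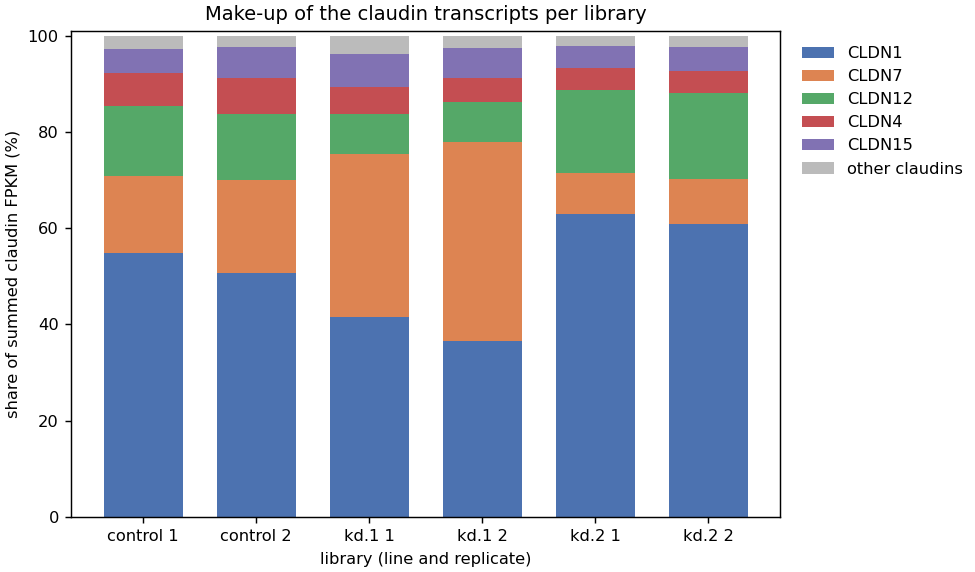
Share of the summed claudin FPKM (%) held by each of the 5 tested claudins and by the other 18 together, 1 bar per library. The CLDN7 share is 33.9% and 41.3% in kd.1, between 16% and 19.2% in the control and under 10% in kd.2. The CLDN1 share moves the other way. Shares have a fixed total, so a gain for any gene lowers the joint share of the others.

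Of the other 96 junction and polarity genes listed for context, 95 were in the table and 52 were tested. Of these 52, JAM3 and HNF4A passed the filter on low values through 1 line alone and so had to differ; their values are described without a test. In kd.1, 10 of the 52 rose, 7 fell and 35 did not pass. In kd.2, 5 rose, 6 fell and 41 did not pass, and with a common FPKM sum the kd.2 split was 8 up and 3 down. The shares called, 32.7% in kd.1 and 21.2% in kd.2, compare with the 29.2% and 37.9% of all tested genes given above. The median log2 change was 0.03 in kd.1 and 0.02 in kd.2, against 0.02 and -0.03 over all tested genes. Without JAM3 and HNF4A, 9 of 50 rose and 6 fell in kd.1, and 5 rose and 5 fell in kd.2. Leaving out a kd.1 library lowered the kd.1 count, and in kd.1 the count over all tested genes fell with it. Leaving out a kd.2 library lowered the kd.2 count, and leaving out control replicate 1 raised it. A fit with 1 library in a line takes its spread from the other lines alone.

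Among the other claudins only CLDN12 and CLDN15 were tested. CLDN12, a claudin that lacks the usual PDZ-binding tail, was 12.61 and 10.53 FPKM in the control, 6.35 and 6.79 in kd.1 and 14.11 and 14.59 in kd.2. Its libraries followed the order seen for CLDN1, lowest in kd.1 and highest in kd.2. CLDN12 fell by 0.8 ± 0.1 on the log2 scale in kd.1, 1.74-fold (limma adjusted p = 0.000725), and was 2.17-fold higher in kd.2 than in kd.1 (adjusted p = 9.44e-05). Its rise of 0.31 ± 0.1 in kd.2 (limma adjusted p = 0.0322) was lost without control replicate 2 or without either kd.2 library. That call was also lost with no filter on low values (limma adjusted p = 0.0638). CLDN15, a channel-forming claudin, changed by 0.17 in kd.1 and -0.19 in kd.2 and was not called in either.

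Of the 10 other membrane proteins of the junction, 5 were tested. Apart from JAM3, 1 of 4 fell in kd.1, 0 fell in kd.2 and 0 rose in either line, where 29.2% (kd.1) and 37.9% (kd.2) of all tested genes were called. JAM3, a relative of F11R, was 1.07 and 1.23 FPKM in the control, 0.72 and 0.69 in kd.1 and 0.65 and 0.57 in kd.2. All knockdown libraries of JAM3 lay below both controls, and it passed the filter through the controls alone. MARVELD2, the tricellular junction protein tricellulin, fell in kd.1 by 0.54 on the log2 scale (limma adjusted p = 0.038). It was called in only 6 of 14 alternatives, with changes from -0.74 to -0.33. The call was lost on leaving out any 1 library but control replicate 2. It was also lost with a common FPKM sum, no filter on low values or only the groups compared (limma adjusted p = 0.0947, 0.0749 and 0.0774). LSR, CXADR and ESAM, also adhesion proteins of the junction, did not pass in either line.

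Of the 18 junction plaque proteins, 13 were tested. In kd.1, 5 rose and 1 fell, and in kd.2, 2 rose and 0 fell. The shares called were 46.2% in kd.1 and 15.4% in kd.2, against 29.2% and 37.9% of all tested genes. AMOTL1, an angiomotin-family scaffold that binds YAP and Crumbs-complex proteins, was 1.4 and 1.15 FPKM in the control, 2.43 and 2.45 in kd.1 and 1.65 and 1.71 in kd.2, above both controls in every knockdown library. It rose 1.85-fold in kd.1 (limma adjusted p = 0.00159). In kd.2 it rose 1.3-fold (limma adjusted p = 0.0447), a call kept in only 6 of 14 alternatives, with log2 changes from 0.24 to 0.51. This call was lost on leaving out any 1 library but control replicate 1. It was also lost with no filter on low values, a replicate block or only the groups compared (limma adjusted p = 0.0816, 0.059 and 0.0797). AMOTL2 of the same family fell in kd.1, from 19.05 and 18.59 FPKM to 13.37 and 13.75 (adjusted p = 0.00139), and was 18.87 and 19.71 in kd.2. The scaffolds MLLT4 (afadin) and MAGI3 rose in kd.1 by 0.47 and 0.38 on the log2 scale (adjusted p = 0.0207 and 0.0272). Both calls were lost on leaving out either kd.1 library. The MLLT4 call was also lost without control replicate 2, and the MAGI3 call without either kd.2 library. With no filter on low values or only the groups compared, the MAGI3 call was lost as well (limma adjusted p = 0.0511 and 0.0613). SYMPK (symplekin), an RNA-processing protein also found at junctions, rose by 0.23 and 0.22 (adjusted p = 0.0397 and 0.0367). Neither SYMPK call held on leaving out any 1 knockdown library or control replicate 2. Of 14 alternatives, the kd.1 call was kept in 4 and the kd.2 call in 5. Log2 changes of SYMPK in these ran from 0.16 to 0.3 in kd.1 and from 0.15 to 0.32 in kd.2.

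Of the 16 Crumbs and PAR polarity genes, 11 were tested. In kd.1, 0 rose and 1 fell, and in kd.2, 1 rose and 1 fell. The shares called were 9.09% in kd.1 and 18.2% in kd.2, against 29.2% and 37.9% of all tested genes. PARD6B, an adaptor that joins PAR3, atypical protein kinase C and CDC42, was 3.13 and 3.57 FPKM in the control, 1.67 and 1.23 in kd.1 and 2.79 and 2.41 in kd.2. It was lowest in kd.1, where it fell 2.24-fold (limma adjusted p = 0.00118), and in kd.2 its change of -0.35 ± 0.16 did not pass (adjusted p = 0.103). The CRB3 partners PALS1 (listed as MPP5) and PATJ were not called against control in either line. PRKCI and PRKCZ, the atypical protein kinases C, changed in kd.2 in opposite directions, by 0.37 and -0.37 on the log2 scale (adjusted p = 0.0106 and 0.0218). Both kinase calls were lost without kd.2 replicate 1 (0.0939 and 0.162) or 2 (0.0616 and 0.0661), and that of PRKCZ with a common FPKM sum (0.125).

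Of the 13 Scribble-module and kinase polarity genes, 10 were tested. In kd.1, 1 rose and 0 fell, and in kd.2, 1 rose and 1 fell. The shares called were 10% in kd.1 and 20% in kd.2, against 29.2% and 37.9% of all tested genes. DLG3, a membrane-associated guanylate kinase scaffold, was 5.74 and 5.59 FPKM in the control, 5.16 and 5.13 in kd.1 and 3.12 and 3.2 in kd.2. It fell 1.77-fold with kd.2 (limma adjusted p = 0.000381) and was 1.61-fold lower there than in kd.1 (adjusted p = 0.00058). MARK2, the kinase PAR-1b, rose on the log2 scale by 0.29 with kd.1 and by 0.38 with kd.2 (adjusted p = 0.0265 and 0.00777). The kd.1 call was lost without either kd.1 library and with no filter on low values (limma adjusted p = 0.0522). The kd.2 call was lost without kd.2 replicate 2. DLG1, STK11 and VANGL1 did not pass in either line.

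**Figure D4:**
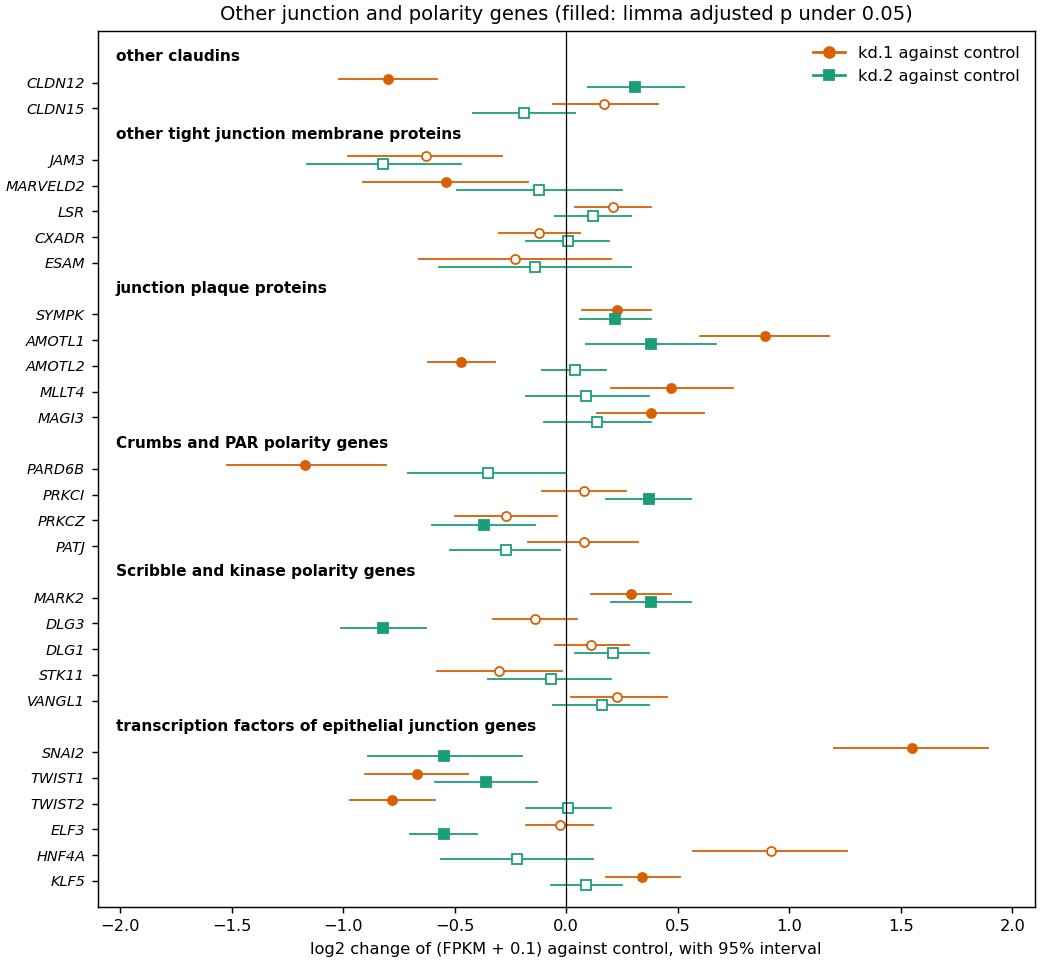
Log2 change of (FPKM + 0.1) against control, with 95% intervals from limma, of the named genes of 6 context lists in kd.1 (circles) and kd.2 (squares), filled where the adjusted p was under 0.05. JAM3 and HNF4A, which passed the filter through 1 line alone, are drawn open. PARD6B lies at -1.17 in kd.1, DLG3 at -0.82 in kd.2, and SNAI2 at 1.55 in kd.1 and -0.55 in kd.2.

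Transcription factors known to act on epithelial junction genes were listed as well. Of 20, 11 were tested. Apart from HNF4A, 3 of 10 rose and 2 fell in kd.1, and 0 rose and 3 fell in kd.2. Over all tested genes, 29.2% were called in kd.1 and 37.9% in kd.2. SNAI2, a repressor that binds E-boxes, was 1.34 and 1.07 FPKM in the control, 3.36 and 4.05 in kd.1 and 0.75 and 0.83 in kd.2. Its libraries followed the same order as those of CLDN7, highest in kd.1 and lowest in kd.2. SNAI2 rose 2.92-fold with kd.1 (limma adjusted p = 0.000272), and it was 4.26-fold lower in kd.2 than in kd.1 (adjusted p = 3.95e-05). Its fall of 1.46-fold in kd.2 (adjusted p = 0.023) was lost without control replicate 1 (0.0577), without kd.2 replicate 1 (0.138) or 2 (0.0791), and with a common FPKM sum (0.0728). On the log2 scale SNAI2 and CLDN7 both rose in kd.1, by 1.55 and 1.02, and both were lower in kd.2 (-0.55 and -0.94). CRB3 rose by 0.83 in kd.1, and its change of 0.15 in kd.2 was not called. E-boxes lie in windows of CLDN7 and CRB3 and also of CLDN3, OCLN and TJP1. Whether SNAI2 has a part in the changes of CLDN7 and CRB3 was not tested.

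TWIST2, a mesenchymal basic helix-loop-helix factor, was 17.4 and 19.12 FPKM in the control, 11.22 and 9.91 in kd.1 and 18.6 and 18.13 in kd.2. It fell 1.72-fold with kd.1 (limma adjusted p = 0.000389), and in kd.2 its log2 change was 0.01 ± 0.08. TWIST1, its relative, fell by 0.67 with kd.1 (adjusted p = 0.00217) and by 0.36 with kd.2 (adjusted p = 0.0228), the second call being lost without kd.2 replicate 1 (0.125) or 2 (0.119) and with a common FPKM sum (0.111). ELF3, an epithelial ETS factor, was 39.44 and 39.26 FPKM in the control, 38.24 and 38.98 in kd.1 and 28.02 and 25.6 in kd.2, a 1.47-fold fall in kd.2 (adjusted p = 0.000692). HNF4A, the hepatocyte nuclear receptor, was 0.55 and 0.6 in the control, 1.15 and 1.2 in kd.1 and 0.45 and 0.51 in kd.2, and passed the filter through kd.1 alone. KLF5 rose 1.27-fold in kd.1 (adjusted p = 0.00855), a call lost without kd.1 replicate 2 (0.0853). The repressors ZEB1 and SNAI1 did not pass against control in either line. Between the lines SNAI1 was higher in kd.2 than in kd.1 by 0.55 on the log2 scale (limma adjusted p = 0.0115). Its libraries were 1.33 and 1.17 FPKM in kd.1, 1.53 and 1.59 in the control and 1.99 and 1.77 in kd.2. This order is the reverse of that of SNAI2. GRHL2, an activator of claudin genes, stayed at or below 0.08 FPKM.

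For each tested member, the tested genes with the most similar library profile were found by the root mean square difference of centred log2 values over the 6 libraries. CLDN7 was nearest to MN1 (0.075) and PLEKHH1 (0.11). CRB3 was nearest to ECHDC3 (0.029) and FAM134B (0.061). CLDN4 was nearest to CXCR4 (0.038) and TNFRSF10B (0.044), and CLDN1 to RBAK (0.034) and GNG12 (0.04). TJP1 was nearest to KIAA1033 (0.034) and KIAA1841 (0.04), and F11R to ZFYVE27 (0.0067) and LOC102724159 (0.016). The values 0.075 and 0.11 for CLDN7, in log2 units, were larger than those of the other members, whose nearest genes lay within 0.061. This measure grows with the size of a gene's changes, which were largest for CLDN7. By Pearson r, CLDN7 and its nearest genes stood at 0.996 and 0.991, where values over all tested members ran from 0.961 to 0.998. These likenesses are descriptions over 6 libraries in 3 lines.

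The labelled cell type was checked against marker lists. Of 9 hepatocyte markers in the table, 7 stayed under 0.2 FPKM in every library, among them APOA1 and TTR. SERPINA1 was the highest, between 1.88 and 3.17 FPKM. Of 12 epithelial markers, 4 stayed under 0.2 FPKM, among them CDH1 (E-cadherin) and EPCAM, while KRT8 and KRT18 led the list. The summed epithelial markers were 2800 and 2860 FPKM in the control, 1400 and 1510 in kd.1 and 2470 and 2520 in kd.2, a drop in kd.1 carried by KRT8 and KRT18. The sum hides markers that rose in kd.1, SPINT1 by 0.7 (limma adjusted p = 0.00506) and ESRP2 by 0.25 (limma adjusted p = 0.0311) on the log2 scale. MAL2 changed there by -0.35 (limma adjusted p = 0.0066). In kd.2, 4 of the 7 tested epithelial markers were called, all lower, where 37.9% of all tested genes were called. These were SPINT1 (-0.57), PRSS8 (-1.31), KRT19 (-0.32) and MAL2 (-0.27), with limma adjusted p = 0.00974, 0.000456, 0.0194 and 0.0162. The summed mesenchymal markers, led by VIM and LUM, were 624 to 629 FPKM in the control. They were 625 to 631 in kd.1 and 504 to 511 in kd.2, with 3 of 10 under 0.2, among them FN1 and COL1A2. The kd.1 sum hides a rise of DCN by 0.34 on the log2 scale (limma adjusted p = 0.011). COL1A1, which passed the filter through kd.1 alone, was 1.06 and 1.39 FPKM there. In kd.2, VIM changed by -0.35 and DCN by -0.93 (limma adjusted p = 0.00572 and 0.000137). The summed endothelial markers, led over all libraries by ESAM and CDH5 (in both knockdown lines the mean of TIE1 exceeded that of CDH5), were 5.58 to 6.22 in the control, 4.11 to 4.94 in kd.1 and 4.18 to 4.23 in kd.2, with 5 of 9 under 0.2, among them ERG. The summed leukocyte markers were 23.6 to 27.4, 32.2 to 32.8 and 31.4 to 33.9, nearly all of it CD68, with 6 of 10 under 0.2, among them PTPRC and MS4A1. LYZ, the next highest, fell with kd.2 by 0.54 on the log2 scale (limma adjusted p = 0.0164), and its change with kd.1 was -0.14 (limma adjusted p = 0.466). The part of these shifts in the results was not tested.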

How the data were processed

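Total RNA of 6 HLE libraries was sequenced. The authors deposited 1 table of 21372 features, whose values were taken as FPKM because they are not whole, have 2 decimals and have column sums that differ; no label states the unit. The submitters' processing notes list RSEM 1.2.12, Bowtie2 2.2.5 and HISAT2 2.0.4, and hg38 and GRCh38.p11 as builds, without their roles; use of strand is not stated.

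After 1869 features without a gene name were left out, the 10851 genes that reached 1 FPKM in 2 or more libraries were fitted as log2(FPKM + 0.1) by limma 3.58.1 (R 4.3.3). The fit had a mean for each line and a robust, trended prior, which raised the residual degrees of freedom from 3 to a median of 8.64. P-values were adjusted over all tested genes within a contrast, and the fit was tested on simulated data. With 2 libraries per line no exact permutation test could reach 0.05, so none is given. An SD covers 2 libraries and an SE comes from the limma fit. Gene positions came from GENCODE release 29 on GRCh38, and promoters from RefSeq.

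The members and lists were chosen with earlier results of these data known. Named were the 8 members, ZNF281, and from each of 6 context lists the genes called in both lines and up to 4 more by smallest adjusted p. Also named were the 2 genes nearest in profile to each tested member and, of each marker list, the 2 highest and those near 0; other genes named were chosen after their values were seen. In all 14 alternatives were run: pseudocount, filters, scalings, replicate block, moderation, samples fitted and each library left out. A planned comparison of claudin proteins was not run. CLDN22, ALB, APOB, AFP and KDR were not analysed here, and a few genes met by this rule are left unreported.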

Additional observations from a re-analysis of the deposited data

Results flagged for a closer look

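Of the 6 tested members, 3 differed between the knockdown lines by the direct test of kd.2 against kd.1, a contrast in which 32.2% of all tested genes were called. CLDN7 differed by -1.96 on the log2 scale, with both kd.1 libraries above and both kd.2 libraries below the controls. CRB3 differed by -0.68, with both kd.1 libraries above both kd.2 libraries. CLDN1 differed by 0.74, with both kd.2 libraries above both kd.1 libraries. The lines differed in ZNF281 itself by -0.03 (95% interval -0.25 to 0.18). The cause of the differences was not tested.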

How the results depend on the processing

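The called changes of CLDN1, CLDN4, CLDN7 and CRB3 in each contrast kept their direction and their call under every alternative run. On leaving out 1 library the members called were 4 to 5 in kd.1, 2 to 3 in kd.2, 3 to 4 between the lines and 2 to 3 over both. The context genes called were 17 in kd.1 (7 to 21), 11 in kd.2 (3 to 18), 20 between the lines (8 to 26) and 16 over both (8 to 19). A common median turned the split between the lines from 8 up and 12 down to 10 and 7, and a common FPKM sum the split over both from 7 and 9 to 12 and 6. All genes called were 3166 in kd.1 (1255 to 5507), 4110 in kd.2 (1284 to 6145), 3496 between the lines (1391 to 5499) and 3769 over both (1892 to 5836). With only the groups compared, all genes called were 2017 in kd.1 and 5510 between the lines. The uncalled values that changed sign were F11R in kd.1 (0.04 with a common FPKM sum; -0.08 to 0.01 on leaving out 1 library) and over both (-0.01 with a common median; -0.04 to 0.04), TJP1 in kd.2 (0.04 with a common FPKM sum; -0.31 to 0.19) and over both (-0.12 to 0.37), and CLDN1 (-0.27 to 0.01) and CLDN7 (-0.05 to 0.13) over both. Over both, CLDN1 was called without control replicate 2 and TJP1 without control replicate 1. TJP1 between the lines was also called with only those lines fitted (limma adjusted p = 0.0052). The spread between the control libraries does not enter these fits. The cause was not tested. Depth is unknown, and CLDN3 and OCLN are too low to compare.

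The replicate numbers gave no strong pairing of the libraries. Duplicates' differences correlated at 0.02 between control and kd.1, -0.09 between control and kd.2, and 0.18 between kd.1 and kd.2. With the replicate block the members called were 4, 3, 3 and 2, the added one being CLDN1 in kd.2 (adjusted p = 0.0444), the context genes 17, 9, 18 and 15, and all genes 2930, 3891, 3340 and 3550.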
